A study of Arabidopsis thaliana with 47 samples.

Results

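The histone genes of Arabidopsis thaliana described here are 40 loci of the 36823 in the count table, chosen by locus code as genes for the linker histone H1 and for the core histones H2A, H2B, H3 and H4. They comprise 25 genes of the replication-coupled types, namely 8 H4, 5 H3.1, 4 H2A and 8 H2B genes. A further 12 genes encode variants, namely 3 of H3.3, 2 of H2A.X, 3 of H2A.W and 4 of H2A.Z, and 3 genes encode linker histones. The assignment to types follows the gene family as known and the sequence checks given next, and no expression value entered it. RNA came from the dissected root meristematic zone, the dividing part of the root tip, with 50 sections in each of 47 libraries. Plants of 3 genotypes were compared. In plt2/gPLT2C212S-GFP the plt2 mutant carries a PLT2-GFP transgene with a C212S change, in plt2/gPLT2-GFP it carries the transgene without that change, and the third genotype is the plt2 mutant itself. All groups carry the plt2 mutation, and no wild type is analysed here. Whether each transgene is represented by 1 transformant is not given in the sources used here. Seedlings had grown for 6 days and were then given mock medium, 0.3 nM RGF1 or 5 nM RGF1 for 24 h. Each of the 9 groups had 5 libraries, except both transgenic lines at 5 nM RGF1, which had 6 each. The lines are called gPLT2C212S, gPLT2 and plt2 from here on.

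Histones package DNA into nucleosomes, in which DNA winds around an octamer of H2A, H2B, H3 and H4, while H1 binds the linker DNA between them. Replication-coupled histones are made in large amounts during S phase, when new DNA must be packaged, and their transcript level is a common readout of how many cells replicate DNA. Variants such as H3.3 and H2A.Z are also deposited outside replication: H3.3 marks transcribed genes and gene bodies, H2A.Z sits near transcription starts and in responsive genes, H2A.X is phosphorylated at DNA breaks, and the plant-specific H2A.W lies in heterochromatin. PLT2 is an AP2-domain transcription factor that maintains the root stem cell niche and promotes division in the meristem. RGF1 is a secreted sulfated peptide, perceived by leucine-rich-repeat receptor kinases, that widens the PLT2 protein domain and enlarges the meristem.

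The H3.1 and H3.3 genes encode proteins that differ at only 4 positions, codons 31, 41, 87 and 90 when the start codon is not counted, and share 97.06% of their residues. The coding stretch of codons 24 to 45 is shown because it holds the first pair of these positions, which separate the replication-coupled from the replacement type. Capitals mark codons 31 and 41. The sequences are from RefSeq, assembly TAIR10.1, in the coding direction. The H3.1 genes AT1G09200 and AT5G65360 lie at chr1:2971571-2972334 and chr5:26119859-26120581, and the H3.3 genes AT4G40030 and AT5G10980 are at chr4:18555532-18557106 and chr5:3472405-3473570, all on the minus strand.
AT1G09200 (H3.1): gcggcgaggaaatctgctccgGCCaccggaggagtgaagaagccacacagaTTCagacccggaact
AT5G65360 (H3.1): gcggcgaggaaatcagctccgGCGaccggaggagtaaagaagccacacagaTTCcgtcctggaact
AT4G40030 (H3.3): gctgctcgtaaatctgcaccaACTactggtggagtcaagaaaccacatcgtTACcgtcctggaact
AT5G10980 (H3.3): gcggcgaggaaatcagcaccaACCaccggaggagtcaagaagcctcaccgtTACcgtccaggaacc
Within a type, the 5 H3.1 genes encode one protein in all 10 pairs, the 3 H3.3 genes do so in all 3 pairs, and the 8 H4 genes in all 28 pairs. Their coding sequences still differ, with 80.29% to 89.54% identity among H3.1 genes and 78.85% to 98.08% among H4 genes. The closest pair of transcripts, the H4 genes AT3G45930 and AT3G46320, shares an unbroken run of 160 bases, and the H4 genes AT1G07660 and AT1G07820 share one of 137 bases. The H4 genes AT5G59690 and AT5G59970, with 97.12% coding identity, share one of 95 bases. Reads inside such runs cannot be placed, so counts of these H4 genes are uncertain between the partners, and their values are best read for the pair. The 8 genes HTA3, HTA4, HTA9, HTA12, HTA13, HTB9, AT1G06760 and AT2G30620 overlap a gene on the opposite strand, and AT3G27360 overlaps one on its own strand. Whether the counting used strand is not given in the sources used here, so reads of such partners may be mixed.

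The upstream sequences of 5 genes are shown because they carry elements known from plant histone promoters, and because these genes include the leading members of their types. Each run is the 250 bases before the RefSeq gene start, in the direction of the gene. Capitals mark the octamer CGCGGATC, or its reverse complement GATCCGCG, and the hexamer ACGTCA.
AT1G09200 (H3.1), chr1:2972335-2972584, minus strand: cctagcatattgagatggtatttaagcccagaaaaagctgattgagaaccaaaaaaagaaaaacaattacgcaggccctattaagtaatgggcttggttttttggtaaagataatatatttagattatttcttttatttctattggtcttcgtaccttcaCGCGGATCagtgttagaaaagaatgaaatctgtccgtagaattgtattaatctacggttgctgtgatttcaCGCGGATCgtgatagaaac
HTA10 (H2A), chr1:18926561-18926810, plus strand: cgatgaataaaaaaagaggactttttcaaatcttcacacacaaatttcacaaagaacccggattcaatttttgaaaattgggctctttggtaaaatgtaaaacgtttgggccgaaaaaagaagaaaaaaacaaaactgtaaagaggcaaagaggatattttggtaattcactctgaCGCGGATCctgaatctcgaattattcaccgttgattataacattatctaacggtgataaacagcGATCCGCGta
HTA6 (H2A.W), chr5:24116221-24116470, minus strand: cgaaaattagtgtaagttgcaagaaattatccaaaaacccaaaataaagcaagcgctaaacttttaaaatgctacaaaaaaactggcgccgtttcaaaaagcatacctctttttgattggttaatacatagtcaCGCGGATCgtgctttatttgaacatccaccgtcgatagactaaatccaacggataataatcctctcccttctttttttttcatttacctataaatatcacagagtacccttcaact
HTB11 (H2B), chr3:16914132-16914381, minus strand: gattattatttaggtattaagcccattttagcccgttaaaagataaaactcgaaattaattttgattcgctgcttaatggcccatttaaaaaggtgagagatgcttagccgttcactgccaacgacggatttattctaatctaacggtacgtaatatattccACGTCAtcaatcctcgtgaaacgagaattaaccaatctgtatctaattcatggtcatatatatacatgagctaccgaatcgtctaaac
AT5G10980 (H3.3), chr5:3473571-3473820, minus strand: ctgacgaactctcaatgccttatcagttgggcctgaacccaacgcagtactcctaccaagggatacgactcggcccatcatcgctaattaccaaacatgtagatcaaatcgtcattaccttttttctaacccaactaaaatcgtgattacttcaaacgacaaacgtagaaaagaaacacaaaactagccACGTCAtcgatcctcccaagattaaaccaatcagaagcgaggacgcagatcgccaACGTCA
The octamer, searched on both strands, was present upstream of 10 of the 40 histone genes, or 25%, against 37 of 27443 protein-coding genes, or 0.135%. It occurred in 3 of 5 H3.1 genes, 2 of 4 H2A genes and 2 of 8 H4 genes, in 1 gene each of H3.3, H2A.W and H1, and in 0 of 8 H2B genes. The hexamer was likewise present in 10 of 40 histone genes, against 2110 of all genes, or 7.69%, and 7 of its 10 carriers were H2B genes, every H2B gene except HTB4. E2F factors control S phase genes, and any of the E2F site forms TTTCCCGC, TTTGGCGC, TTTCGCGC and TTTGCCGC occurred upstream of 3 histone genes, or 7.5%, against 387 of all genes, or 1.41%. These were AT3G45930, AT3G46320 and HTB2. The nonamer CATCCAACG was found upstream of 0 of 40 histone genes and 41 of all genes, or 0.149%. The core AACGG of the element known from mitotic genes was found upstream of 20 of 40 histone genes, or 50%, against 5645 of all genes, or 20.6%. No 2 of these motifs overlapped in a histone promoter. A match is a run of letters, not a tested site.

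Libraries held 7739807 to 10332541 counted reads, of which 46.3% to 72.4% fell on mitochondrial genes, leaving 2312124 to 4878611 nuclear counts, and 6699 to 22929 counts per library fell on the histone genes. A count of 3, used as the floor, corresponds to 0.559 to 1.12 FPKM for a transcript of 1 kb, and such floors cover counting error only. PLT2 itself averaged 28.0, 22.1 and 33.3 FPKM at mock, 0.3 nM and 5 nM in gPLT2C212S, 17.4, 15.1 and 23.5 FPKM in gPLT2, and 2.98, 3.21 and 2.50 FPKM in plt2, as the labels imply. In plt2, replicate 1 at 5 nM held values of HTA6, HTA7 and HTA13 above the rest of its group. The labels do not say that replicates were separately grown, so p-values measure the spread between these libraries, which may be technical.

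Levels are given as FPKM, the authors' deposited values per length of transcript, which allow comparison between genes. How libraries were scaled to each other is not given in the sources used here, but it can be read from the values. With library factors taken as the median ratio of counts over 16449 genes, they returned whole-number transcript lengths for 100% of 25722 loci. The deposited FPKM thus follow such factors, not total counts alone. Fold changes are on the log2 scale, with standard errors, from edgeR's quasi-likelihood test on the deposited counts, and a gene is said to rise or fall where its Benjamini-Hochberg adjusted p over all genes tested was under 0.05. The highest mean levels over all 47 libraries were those of the H2B genes HTB11 and HTB4, at 349 and 348 FPKM. Next came the H3.1 gene AT1G09200 at 259 FPKM, the H3.3 gene AT5G10980 at 218 FPKM and the H3.1 gene AT5G65360 at 208 FPKM. The leaders of the other types were HTA6 for H2A.W at 178 FPKM, HTA9 for H2A.Z at 175 FPKM, AT3G45930 for H4 at 174 FPKM and AT1G06760 for H1 at 166 FPKM. HTA4, an H2A.Z gene, and HIS1-3, a linker histone known to be induced by drought, had 20 and 19 counts in total over all libraries and were tested in no comparison. The H2A.W gene HTA12, with a mean of 9.26 counts per library, passed the filter in some comparisons only. Thus 36 to 38 of the 40 genes were tested in each comparison, and the untested ones had too few counts to be judged.

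Both transgenic lines had lower histone transcript levels after RGF1, and the plt2 mutant showed this for few genes. At 5 nM RGF1 against mock, 33 of 38 tested histone genes fell in gPLT2C212S, 30 of 37 in gPLT2 and 5 of 38 in plt2, and 0 rose in any of the 3. Over all genes tested, the share that fell was 21.5% in gPLT2C212S, 24.3% in gPLT2 and 6.62% in plt2. The median log2 change of the tested histone genes was −0.91 in gPLT2C212S, −0.67 in gPLT2 and −0.18 in plt2, while the median over all genes was 0.00, 0.03 and 0.02. In these bulk libraries, fewer cells of a type and less RNA per cell cannot be told apart.

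By number of genes called, the lines divided in the same manner at 0.3 nM. In gPLT2C212S, 29 of 38 tested histone genes fell, with a median log2 change of −0.62 over those tested. In gPLT2, 25 of 38 fell, with a median of −0.57. The 25 include HTA12, which had a mean of only 9.26 counts per library over all libraries. In plt2, edgeR and DESeq2 each called 0 of 38, the median was −0.02, and 5 genes had an unadjusted p under 0.05. The smallest adjusted p there among replication-coupled genes was that of the H3.1 gene AT5G10390, with 28.0, 31.1, 23.3, 27.6 and 25.6 FPKM at 0.3 nM, against 40.6, 48.0, 27.4, 27.4 and 51.1 FPKM at mock, and among variants that of HTA9. Their log2 changes were −0.52 ± 0.19 (adjusted p = 0.544) and −0.27 ± 0.12 (adjusted p = 0.669). The share of all genes tested that fell was 11.1% in gPLT2C212S, 9.08% in gPLT2 and 0.0189% in plt2. When libraries were scaled by total counts in place of TMM factors, 10 histone genes fell at 0.3 nM in each transgenic line, and the median of the replication-coupled genes was −0.49 in gPLT2C212S and −0.52 in gPLT2, where the same scaling put the median over all genes at 0.27 and 0.07. The 0.3 nM and 5 nM comparisons of a line share their mock libraries.

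**Figure D1:**
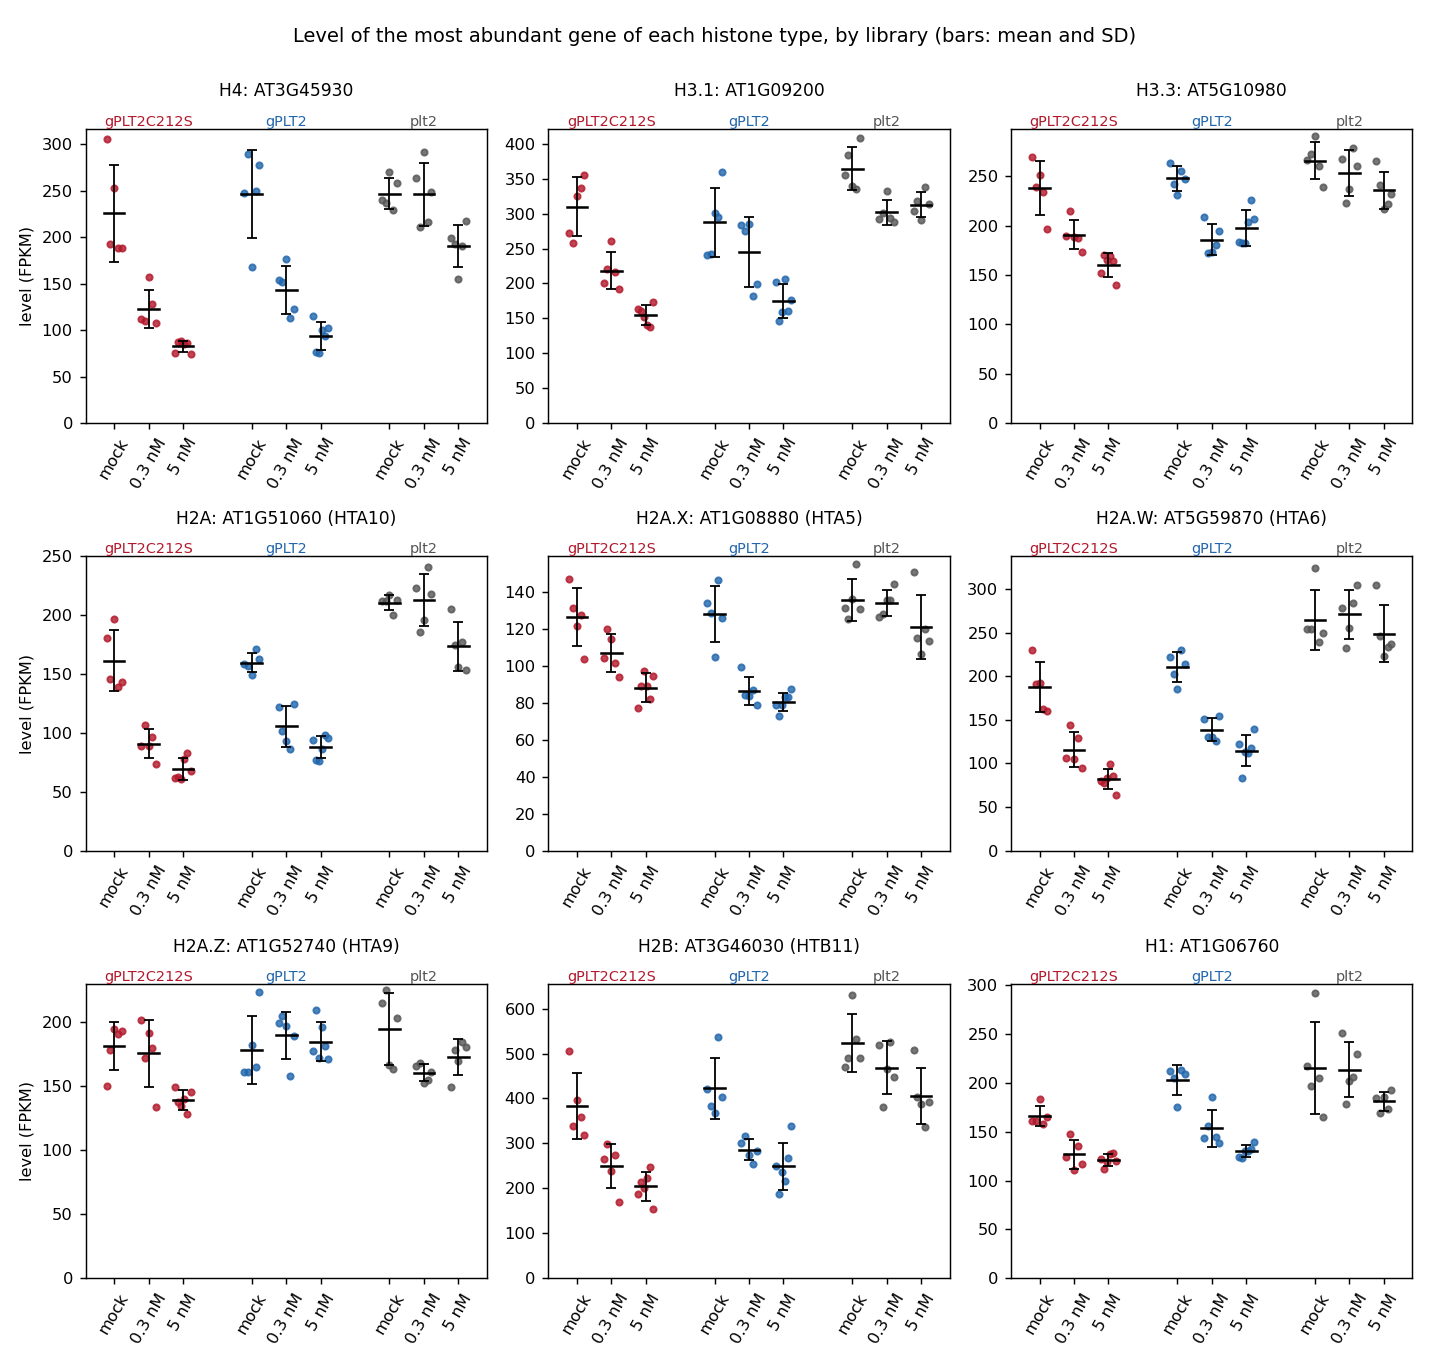
Level in FPKM of the member with the highest mean level in each of the 9 histone types, by genotype and RGF1 dose in nM, with one point per library and a bar at the group mean with its SD. In both transgenic lines the H4 gene AT3G45930 and the H2A gene HTA10 sit lower at 5 nM than in every mock library, with medians of 85.5 and 65.3 FPKM in gPLT2C212S, whereas the H2A.Z gene HTA9 at 5 nM stays at a median of 179 FPKM in gPLT2.

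Replication-coupled genes came first in size of change. H4, which pairs with H3 to form the tetramer at the heart of the nucleosome, fell in 8 of 8 genes at 5 nM in gPLT2C212S, in 7 of 8 in gPLT2 and in 4 of 8 in plt2, with median log2 changes of −1.19, −0.83 and −0.39. The leading H4 gene AT3G45930 had 305, 193, 253, 189 and 188 FPKM at mock and 112, 110, 157, 128 and 108 FPKM at 0.3 nM in gPLT2C212S, and its 6 libraries at 5 nM ranged from 73.8 to 88.1 FPKM with a median of 85.5. In gPLT2 it had 248, 289, 168, 250 and 278 FPKM at mock and 154, 152, 177, 113 and 122 FPKM at 0.3 nM, and at 5 nM it ranged from 75.2 to 115 FPKM with a median of 96.4. In plt2 it had 240, 237, 270, 229 and 259 FPKM at mock, 264, 211, 292, 216 and 248 FPKM at 0.3 nM, and 199, 192, 155, 190 and 217 FPKM at 5 nM. All 5 nM libraries of both transgenic lines lay below every mock library of their line, and in plt2 the 5 nM libraries also lay below the mock ones, by a smaller margin. The log2 change at 5 nM was −1.46 ± 0.13 in gPLT2C212S (edgeR adjusted p = 1.45e-09) and −1.40 ± 0.14 in gPLT2 (adjusted p = 1e-07), against −0.34 ± 0.11 in plt2 (adjusted p = 0.0556), the last short of the threshold. At 0.3 nM it was −0.86 in gPLT2C212S (adjusted p = 0.000147) and −0.78 in gPLT2 (adjusted p = 0.000711), against 0.00 in plt2 (adjusted p = 0.998).

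Its near copy AT3G46320 had 76.3 to 135 FPKM at mock, 46.4 to 57.3 FPKM at 0.3 nM and 27.7 to 41.5 FPKM at 5 nM in gPLT2C212S, with medians of 92.7, 50.0 and 33.3 FPKM. In gPLT2 the 3 ranges were 84.6 to 127, 52.5 to 68.6 and 41.8 to 50.3 FPKM, with medians of 107, 59.6 and 46.4 FPKM, and in plt2 they were 89.1 to 142, 91.0 to 146 and 76.4 to 99.0 FPKM, with medians of 121, 117 and 87.9 FPKM. Mock, 0.3 nM and 5 nM did not overlap with one another in either transgenic line, and plt2 libraries overlapped throughout. AT3G46320 changed by −1.55 ± 0.15 at 5 nM in gPLT2C212S (edgeR adjusted p = 6.84e-09) and −1.21 ± 0.11 in gPLT2 (adjusted p = 3.94e-08), against −0.47 ± 0.14 in plt2 (adjusted p = 0.0377). Among H4 genes, AT5G59970 had the largest fall in gPLT2. It had 157, 134, 87.6, 138 and 132 FPKM at mock and 66.9, 53.9, 47.4, 51.9 and 68.0 FPKM at 0.3 nM in gPLT2, and ranged from 30.8 to 58.4 FPKM with a median of 39.5 at 5 nM. In gPLT2C212S its 3 ranges were 70.01 to 146, 40.1 to 56.5 and 29.1 to 54.6 FPKM, with medians of 110, 52.5 and 40.4 FPKM. In plt2 its levels were 113, 137, 170, 128 and 121 FPKM at mock, 190, 109, 129, 145 and 163 FPKM at 0.3 nM, and 96.6, 93.5, 106, 91.3 and 83.4 FPKM at 5 nM. Doses did not overlap with mock in either transgenic line, and in plt2 only the 5 nM libraries lay below mock. Its log2 change at 5 nM was −1.38 ± 0.16 in gPLT2C212S (edgeR adjusted p = 2.11e-07) and −1.64 ± 0.17 in gPLT2 (adjusted p = 2.09e-07), against −0.48 ± 0.12 in plt2 (adjusted p = 0.0173).

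The H3.1 genes fell in 5 of 5 cases at 5 nM in gPLT2C212S, in 4 of 5 in gPLT2 and in 0 of 5 in plt2, with median log2 changes of −1.04, −0.51 and −0.15. H3.1 is the replication-coupled H3, placed on new DNA by the chromatin assembly factor CAF-1. AT1G09200 had 273, 258, 325, 337 and 355 FPKM at mock and 201, 221, 261, 217 and 192 FPKM at 0.3 nM in gPLT2C212S, and ranged from 137 to 174 FPKM with a median of 156 at 5 nM. In gPLT2 it had 241, 242, 302, 295 and 360 FPKM at mock and 284, 275, 286, 182 and 200 FPKM at 0.3 nM, and ranged from 146 to 207 FPKM with a median of 168 at 5 nM. Its plt2 levels were 356, 384, 340, 336 and 408 FPKM at mock, 293, 301, 333, 294 and 289 FPKM at 0.3 nM, and 304, 318, 291, 339 and 314 FPKM at 5 nM. The 5 nM and mock libraries did not overlap in either transgenic line, while in plt2 the highest 5 nM library passed the lowest mock one. At 0.3 nM every plt2 library lay below all plt2 mock libraries, whereas both transgenic lines overlapped with their mock. The summed H3.1 level at 0.3 nM was 724 to 783 FPKM in plt2, against 811 to 978 FPKM at mock. It was 465 to 607 FPKM in gPLT2, against 580 to 786 FPKM, and 405 to 526 FPKM in gPLT2C212S, against 678 to 801 FPKM. At 5 nM the log2 change was −1.01 ± 0.11 in gPLT2C212S (edgeR adjusted p = 4.7e-08) and −0.72 ± 0.12 in gPLT2 (adjusted p = 7.05e-05), against −0.19 ± 0.10 in plt2 (adjusted p = 0.258).

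The H3.1 gene AT5G65360 had 227, 242, 291, 255 and 261 FPKM at mock and 134, 112, 146, 158 and 125 FPKM at 0.3 nM in gPLT2C212S, and ranged from 96.2 to 134 FPKM with a median of 116 at 5 nM. In gPLT2 it had 198, 182, 237, 227 and 256 FPKM at mock and 195, 166, 152, 148 and 204 FPKM at 0.3 nM, and ranged from 143 to 189 FPKM with a median of 151 at 5 nM. In plt2 it had 344, 352, 249, 276 and 341 FPKM at mock, 249, 270, 234, 279 and 237 FPKM at 0.3 nM, and 277, 279, 251, 304 and 277 FPKM at 5 nM. In gPLT2C212S both doses lay wholly below mock, in gPLT2 the 5 nM and mock ranges overlapped at their edges, and in plt2 all doses overlapped. Its log2 change was −0.91 ± 0.11 at 0.3 nM (edgeR adjusted p = 5.25e-06) and −1.17 ± 0.11 at 5 nM (adjusted p = 4.7e-09) in gPLT2C212S, and −0.48 ± 0.11 at 5 nM in gPLT2 (adjusted p = 0.00113).

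Canonical H2A, which dimerizes with H2B on the faces of the nucleosome, fell in 3 of 4 genes at 5 nM in gPLT2C212S, in 4 of 4 in gPLT2 and in 0 of 4 in plt2, with median log2 changes of −1.10, −0.90 and −0.18. HTA10 had 181, 146, 197, 139 and 143 FPKM at mock and 88.7, 107, 88.9, 96.5 and 73.7 FPKM at 0.3 nM in gPLT2C212S, and ranged from 61.0 to 83.3 FPKM with a median of 65.3 at 5 nM. The gPLT2 libraries had 159, 157, 149, 172 and 163 FPKM at mock and 122, 102, 92.9, 86.4 and 125 FPKM at 0.3 nM, and ranged from 76.6 to 98.1 FPKM with a median of 90.1 at 5 nM. In plt2 it had 212, 212, 217, 200 and 213 FPKM at mock, 224, 186, 196, 241 and 218 FPKM at 0.3 nM, and 206, 175, 156, 177 and 154 FPKM at 5 nM. Both doses lay wholly below mock in both transgenic lines, and in plt2 the doses overlapped with mock. The log2 change at 5 nM was −1.24 ± 0.12 in gPLT2C212S (edgeR adjusted p = 8.19e-09) and −0.87 ± 0.10 in gPLT2 (adjusted p = 6.34e-07), against −0.25 ± 0.10 in plt2 (adjusted p = 0.14). HTA1, known as RAT5 for its part in Agrobacterium transformation, was the H2A gene that did not pass in gPLT2C212S, with a log2 change of −0.27 (adjusted p = 0.517), against −0.93 in gPLT2 (adjusted p = 0.00472).

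H2B fell in 7 of 8 genes at 5 nM in gPLT2C212S, in 8 of 8 in gPLT2 and in 0 of 8 in plt2, with median log2 changes of −1.03, −0.82 and −0.20. The leading gene HTB11 had 505, 340, 396, 360 and 318 FPKM at mock and 265, 299, 238, 275 and 170 FPKM at 0.3 nM in gPLT2C212S, and ranged from 153 to 248 FPKM with a median of 208 at 5 nM. Levels in gPLT2 were 421, 384, 367, 537 and 404 FPKM at mock and 300, 316, 275, 255 and 284 FPKM at 0.3 nM, and ranged from 187 to 339 FPKM with a median of 242 at 5 nM. In plt2 it had 470, 491, 630, 532 and 489 FPKM at mock, 519, 381, 466, 526 and 448 FPKM at 0.3 nM, and 507, 404, 387, 336 and 393 FPKM at 5 nM. Each transgenic line had its 5 nM and 0.3 nM libraries below all its mock libraries, and the plt2 doses overlapped with mock. At 5 nM the log2 change was −0.92 ± 0.13 in gPLT2C212S (edgeR adjusted p = 2.99e-06) and −0.77 ± 0.14 in gPLT2 (adjusted p = 0.000119), against −0.34 ± 0.12 in plt2 (adjusted p = 0.0953).

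HTB4, the other H2B gene of high level, did not pass in gPLT2C212S. Its levels there were 240 to 320 FPKM with a median of 293 at 5 nM, against 358, 327, 335, 270 and 310 FPKM at mock, a log2 change of −0.15 ± 0.11 (edgeR adjusted p = 0.278). In gPLT2 they were 191 to 328 FPKM with a median of 264 at 5 nM, against 393, 325, 352, 426 and 388 FPKM at mock, a log2 change of −0.50 ± 0.13 (adjusted p = 0.0027). HTB4 was also the one H2B gene whose upstream run lacked the hexamer, and a link to its response was not tested. The largest fitted falls in the family belonged to AT2G28720, at −1.63 ± 0.32 in gPLT2C212S and −1.69 ± 0.35 in gPLT2, on a mean of only 15.6 counts per library.

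**Figure D2:**
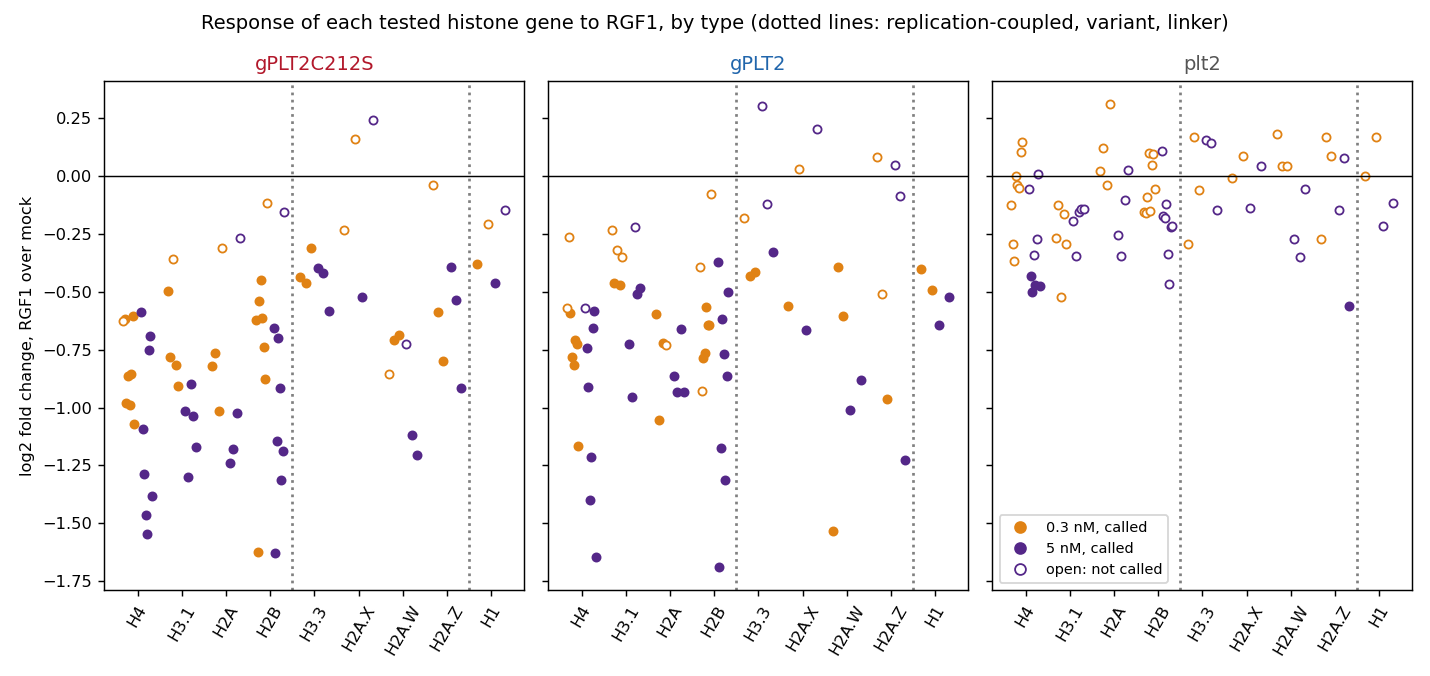
Log2 change of each tested histone gene at 0.3 nM and 5 nM RGF1 against mock, by type and line, with one point per gene, filled where edgeR's adjusted p was under 0.05, and dotted lines between the replication-coupled, variant and linker types. In gPLT2C212S at 5 nM the 8 H4 genes all lie below 0 with a median of −1.19, and in plt2 the points of most types lie close to 0.

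Variant genes fell too, by smaller amounts. At 5 nM, 9 of 11 tested variant genes fell in gPLT2C212S, 5 of 10 in gPLT2 and 1 of 11 in plt2, with medians of −0.54, −0.22 and −0.14, whereas replication-coupled genes fell in 23, 23 and 4 of 25 cases, with medians of −1.09, −0.77 and −0.22. H2A.W stood near the replication-coupled genes. It fell in 2 of 3 tested genes in gPLT2C212S, 2 of 2 in gPLT2 and 0 of 3 in plt2, with medians of −1.12, −0.95 and −0.27. HTA6 had 230, 191, 192, 163 and 160 FPKM at mock and 106, 145, 105, 129 and 95.2 FPKM at 0.3 nM in gPLT2C212S, and ranged from 64.2 to 99.7 FPKM with a median of 81.4 at 5 nM. gPLT2 had 222, 203, 186, 230 and 214 FPKM at mock and 151, 131, 131, 126 and 154 FPKM at 0.3 nM, and ranged from 83.9 to 139 FPKM with a median of 116 at 5 nM. The plt2 libraries had 255, 254, 324, 239 and 250 FPKM at mock, 278, 233, 255, 284 and 304 FPKM at 0.3 nM, and 305, 246, 223, 234 and 237 FPKM at 5 nM. Both doses lay below mock without overlap in the transgenic lines and overlapped with mock in plt2. The log2 change at 5 nM was −1.21 ± 0.12 in gPLT2C212S (edgeR adjusted p = 1.29e-08) and −0.88 ± 0.11 in gPLT2 (adjusted p = 3.17e-06), against −0.06 ± 0.12 in plt2 (adjusted p = 0.807). At 0.3 nM HTA6 changed by −0.68 ± 0.13 in gPLT2C212S (adjusted p = 0.000576), a call lost with total-count scaling at −0.43 (adjusted p = 0.111). A second H2A.W gene, HTA7, ranged over 134 to 236, 97.7 to 128 and 72.2 to 93.8 FPKM at mock, 0.3 nM and 5 nM in gPLT2C212S, 148 to 196, 117 to 166 and 72.8 to 114 FPKM in gPLT2, and 145 to 240, 155 to 221 and 131 to 170.3 FPKM in plt2. Its 5 nM libraries lay below mock in both transgenic lines and overlapped with mock in plt2. Its log2 change at 5 nM was −1.12 ± 0.13 in gPLT2C212S (adjusted p = 1.66e-07) and −1.01 ± 0.12 in gPLT2 (adjusted p = 1.3e-06). HTA12, tested at 5 nM in gPLT2C212S but not in gPLT2, changed there by −0.73 (adjusted p = 0.114).

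H3.3 fell in 3 of 3 genes at 5 nM in gPLT2C212S, 1 of 3 in gPLT2 and 0 of 3 in plt2, with medians of −0.42, −0.12 and 0.14. AT5G10980 had 270, 239, 251, 234 and 197 FPKM at mock and 190, 215, 189, 188 and 173 FPKM at 0.3 nM in gPLT2C212S, and ranged from 140 to 170 FPKM with a median of 165 at 5 nM. For gPLT2 the levels were 264, 242, 231, 255 and 247 FPKM at mock and 208, 172, 173, 181 and 194 FPKM at 0.3 nM, and ranged from 182 to 226 FPKM with a median of 194 at 5 nM. The plt2 libraries had 266, 272, 291, 260 and 240 FPKM at mock, 268, 223, 237, 279 and 260 FPKM at 0.3 nM, and 266, 241, 217, 222 and 232 FPKM at 5 nM. Doses and mock did not overlap in gPLT2, the 5 nM libraries lay below mock in gPLT2C212S, and the plt2 groups overlapped. At 5 nM the log2 change was −0.58 ± 0.10 in gPLT2C212S (edgeR adjusted p = 6.81e-05) and −0.33 ± 0.10 in gPLT2 (adjusted p = 0.00723), against −0.14 ± 0.10 in plt2 (adjusted p = 0.397). The gPLT2 call was lost with total-count scaling, at −0.18 (adjusted p = 0.492), and with an offset for length and GC content, at −0.19 (adjusted p = 0.0782).

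AT4G40030, whose H3.3 sequence is given above, had opposite signs in the transgenic lines at 5 nM. In gPLT2C212S it had 48.9, 68.0, 70.4, 51.6 and 73.1 FPKM at mock and 57.8, 39.1, 39.3, 51.9 and 41.9 FPKM at 0.3 nM, and ranged from 43.4 to 54.8 FPKM with a median of 46.9 at 5 nM. The gPLT2 libraries had 54.4, 48.8, 67.9, 56.2 and 60.1 FPKM at mock and 52.4, 42.1, 44.5, 58.9 and 56.6 FPKM at 0.3 nM, and ranged from 53.4 to 84.3 FPKM with a median of 73.4 at 5 nM. Levels in plt2 were 66.0, 82.3, 46.9, 47.7 and 60.4 FPKM at mock, 45.6, 50.4, 42.5, 62.9 and 46.1 FPKM at 0.3 nM, and 62.4, 62.3, 62.7, 80.2 and 65.1 FPKM at 5 nM. The 5 nM and mock ranges overlapped in all 3 genotypes. At 5 nM the gene fell in gPLT2C212S, with a log2 change of −0.40 ± 0.12 (edgeR adjusted p = 0.00909), and its change of 0.30 ± 0.12 in gPLT2 (adjusted p = 0.0508) and of 0.16 in plt2 (adjusted p = 0.561) did not pass.

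H2A.Z fell in 3 of 3 tested genes at 5 nM in gPLT2C212S, 1 of 3 in gPLT2 and 1 of 3 in plt2. HTA9, its leading member, had 150, 178, 195, 191 and 193 FPKM at mock and 202, 172, 191, 180 and 134 FPKM at 0.3 nM in gPLT2C212S, and ranged from 128 to 150 FPKM with a median of 139 at 5 nM. Levels in gPLT2 were 161, 161, 182, 165 and 223 FPKM at mock and 199, 205, 197, 158 and 190 FPKM at 0.3 nM, and ranged from 171 to 210 FPKM with a median of 179 at 5 nM. Levels in plt2 were 215, 225, 167, 163 and 203 FPKM at mock, 166, 168, 153, 155 and 161 FPKM at 0.3 nM, and 150, 179, 170, 185 and 181 FPKM at 5 nM. In gPLT2C212S the 5 nM libraries lay below the lowest mock library by a narrow margin, and groups overlapped in gPLT2 and plt2. The log2 change at 5 nM was −0.39 ± 0.10 in gPLT2C212S (edgeR adjusted p = 0.00249), 0.05 ± 0.11 in gPLT2 (adjusted p = 0.742, 95% interval −0.16 to 0.25) and −0.15 ± 0.12 in plt2 (adjusted p = 0.475).

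HTA11 was the H2A.Z gene with the largest change. Its gPLT2 levels were 152, 135, 78.9, 146 and 116 FPKM at mock, 66.3, 67.0, 52.4, 70.8 and 64.5 FPKM at 0.3 nM, and 37.5 to 75.1 FPKM with a median of 55.0 at 5 nM. In gPLT2C212S the values were 145, 99.6, 89.0, 74.0 and 56.8 FPKM at mock, 54.4, 58.1, 52.0, 52.7 and 47.9 FPKM at 0.3 nM, and 38.4 to 57.1 FPKM with a median of 51.1 at 5 nM. The plt2 libraries had 108, 149, 191, 135 and 117 FPKM at mock, 171, 134, 134, 137 and 164 FPKM at 0.3 nM, and 125, 97.1, 89.8, 64.0 and 89.2 FPKM at 5 nM. In gPLT2 neither dose overlapped with mock, in gPLT2C212S the 0.3 nM and 5 nM ranges passed just above the lowest mock library, and in plt2 the groups overlapped. Its log2 change at 5 nM was −0.91 in gPLT2C212S (edgeR adjusted p = 9.09e-05) and −1.23 ± 0.18 in gPLT2 (adjusted p = 1.1e-05), against −0.56 ± 0.17 in plt2 (adjusted p = 0.0433). The plt2 call was lost when any of 7 of the 10 libraries was left out, with log2 changes of −0.44 to −0.58 and adjusted p from 0.0726 to 0.105, and also with the replicate number as a block (−0.57, adjusted p = 0.0543) and with the length and GC offset (−0.47, adjusted p = 0.0834).

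The H2A.X genes, whose products mark DNA breaks when phosphorylated, split. HTA5 had 147, 131, 121, 127 and 104 FPKM at mock and 104, 120, 114, 101 and 94.0 FPKM at 0.3 nM in gPLT2C212S, and ranged from 76.9 to 97.3 FPKM with a median of 89.1 at 5 nM. In gPLT2 it had 134, 128, 105, 146 and 126 FPKM at mock and 99.1, 84.3, 83.5, 86.6 and 78.7 FPKM at 0.3 nM, and ranged from 73.0 to 87.2 FPKM with a median of 80.8 at 5 nM. In plt2 it had 131, 125, 136, 155 and 131 FPKM at mock, 127, 128, 135, 136 and 144 FPKM at 0.3 nM, and 150, 115, 106, 120 and 113 FPKM at 5 nM. At 5 nM it lay below mock without overlap in both transgenic lines. Its log2 change was −0.52 ± 0.11 in gPLT2C212S (edgeR adjusted p = 0.000293) and −0.67 ± 0.10 in gPLT2 (adjusted p = 1.77e-05), against −0.14 ± 0.11 in plt2 (adjusted p = 0.482). In gPLT2C212S HTA3 had 63.6 to 88.5 FPKM with a median of 79.5 at 5 nM, against 72.4, 68.6, 70.2, 60.3 and 59.1 FPKM at mock. It was called in none of the 3 lines at 5 nM, with log2 changes of 0.24 ± 0.11 in gPLT2C212S (adjusted p = 0.0819) and 0.21 ± 0.12 in gPLT2 (adjusted p = 0.154), against 0.04 in plt2. HTA3 overlaps a gene on the other strand, so its counts may hold reads of that partner.

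The linker histone gene AT1G06760, an H1 that compacts chromatin between nucleosomes, had 161, 161, 183, 158 and 165 FPKM at mock and 124, 147, 111, 135 and 117 FPKM at 0.3 nM in gPLT2C212S, and ranged from 112 to 128 FPKM with a median of 121 at 5 nM. The gPLT2 libraries had 212, 205, 175, 213 and 209 FPKM at mock and 144, 155, 185, 145 and 138 FPKM at 0.3 nM, and ranged from 123 to 140 FPKM with a median of 130 at 5 nM. Levels in plt2 were 217, 196, 292, 205 and 165 FPKM at mock, 251, 178, 202, 206 and 230 FPKM at 0.3 nM, and 185, 169, 186, 173 and 193 FPKM at 5 nM. The 5 nM libraries of each transgenic line lay below its mock libraries, and the plt2 groups overlapped. At 5 nM the log2 change was −0.46 ± 0.09 in gPLT2C212S (edgeR adjusted p = 0.000349) and −0.64 ± 0.09 in gPLT2 (adjusted p = 1.16e-05), against −0.21 ± 0.13 in plt2 (adjusted p = 0.313). The other tested H1 gene, AT2G30620, changed by −0.15 in gPLT2C212S (adjusted p = 0.387) and fell by 0.52 on the log2 scale in gPLT2 (adjusted p = 0.000522).

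In the plt2 mutant the 5 genes that fell at 5 nM were the H4 genes AT1G07820, HIS4, AT3G46320 and AT5G59970, and HTA11. In plt2 HIS4 had 87.0, 93.8, 76.8, 81.8 and 66.4 FPKM at 5 nM, against 114, 124, 100, 114 and 131 FPKM at mock, without overlap. In gPLT2C212S it had 28.1 to 44.3 FPKM at 5 nM, against 73.9, 89.3, 103, 85.3 and 89.3 FPKM at mock, and in gPLT2 41.8 to 59.4 FPKM, against 79.7, 86.6, 91.9, 103 and 95.8 FPKM. Its log2 change in plt2 was −0.50 ± 0.12 (edgeR adjusted p = 0.0145), and −0.08 with the length and GC offset (adjusted p = 0.779). AT1G07820 had 147, 126, 157, 153 and 160 FPKM at 5 nM, against 181, 209, 215, 198 and 219 FPKM at mock, also without overlap, a log2 change of −0.43 ± 0.10 (adjusted p = 0.0147). All 4 H4 genes were also called in both transgenic lines, with larger fitted changes there. The plt2 count was not stable to the choices made. With the length and GC offset 0 genes were called, and leaving out 1 library gave 2 without replicate 2 or without replicate 5 at 5 nM, 3 without mock replicate 2 or without replicate 3 or 4 at 5 nM, and 9 without replicate 1 at 5 nM.

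At 5 nM, 27 genes fell in both transgenic lines, which is 81.8% of the 33 that fell in gPLT2C212S and 90.0% of the 30 in gPLT2. AT1G07660, HTA9, HTA8, AT4G40030, AT4G40040 and AT5G10390, of which 4 are variant genes, passed the threshold in gPLT2C212S and not in gPLT2, and AT2G30620, HTA1 and HTB4 passed it in gPLT2 and not in gPLT2C212S. Passing in one line alone does not show a difference between lines, which is tested further on. At 0.3 nM, 22 genes fell in both, or 75.9% of the 29 in gPLT2C212S and 88.0% of the 25 in gPLT2. The 2 lines share no libraries, so these counts rest on separate samples. Since most tested histone genes fell in each line, a large overlap follows from the counts alone. Whether the lines shared more genes than that was not tested.

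Summed levels show the change in the pool of transcripts. The 25 replication-coupled genes together averaged 2961 ± 269, 1881 ± 174 and 1549.8 ± 61.7 FPKM at mock, 0.3 nM and 5 nM in gPLT2C212S, and 3075.4 ± 237, 2173.5 ± 142 and 1791 ± 177 FPKM in gPLT2 (SD). In plt2 the sums were 3754 ± 178, 3493 ± 259 and 3084 ± 237 FPKM. The 5 nM libraries of gPLT2C212S lay between 1470 and 1645 FPKM, against 2709 to 3262 FPKM at mock, and those of gPLT2 between 1518 and 2003 FPKM, against 2781 to 3380 FPKM at mock. The 12 variant genes together averaged 1259 ± 129, 960 ± 85.3 and 821.5 ± 40.03 FPKM in gPLT2C212S over the 3 doses, 1316 ± 81.4, 1008 ± 46.9 and 977.5 ± 54.0 FPKM in gPLT2, and 1454.5 ± 95.4, 1434 ± 99.98 and 1298 ± 101 FPKM in plt2. Neither sum depends on 1 library, since the 5 nM and mock ranges of the transgenic lines are apart. The replication-coupled sum of plt2 was apart as well, at 2846 to 3481 FPKM at 5 nM, against 3585 to 4025 FPKM at mock. Its variant sum overlapped, at 1204 to 1468 FPKM at 5 nM, against 1366 to 1597 FPKM at mock. The libraries held a varying share of mitochondrial counts, whose medians at mock, 0.3 nM and 5 nM were 65.0%, 54.0% and 66.8% in gPLT2C212S, 61.5%, 58.7% and 59.7% in gPLT2, and 54.4%, 60.1% and 61.1% in plt2. The total of histone counts was also related to nuclear counts alone. Per 10000 nuclear counts, the median number on histone genes was 45.7, 31.8 and 28.7 in gPLT2C212S, 47.05, 36.4 and 32.25 in gPLT2, and 51.3, 50.7 and 45.8 in plt2, so the lower levels in the transgenic lines are also seen on this scale.

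The makeup of the pool was followed by ratios and shares. The ratio of the replication-coupled to the variant sum averaged 2.36 ± 0.127, 1.961 ± 0.0936 and 1.89 ± 0.0701 in gPLT2C212S, 2.34 ± 0.0866, 2.16 ± 0.12 and 1.83 ± 0.116 in gPLT2, and 2.58 ± 0.102, 2.44 ± 0.068 and 2.38 ± 0.0362 in plt2. Libraries at 5 nM spanned 1.79 to 1.98 in gPLT2C212S, against 2.20 to 2.52 at mock, 1.63 to 1.94 in gPLT2, against 2.22 to 2.44 at mock, and 2.33 to 2.43 in plt2, against 2.52 to 2.76 at mock. The ranges were apart in all 3 genotypes. H3.1 made up 64.7 ± 2.49%, 59.6 ± 3.08% and 55.2 ± 2.03% of the summed H3 level in gPLT2C212S, 62.0 ± 2.80%, 63.1 ± 2.94% and 54.6 ± 3.91% in gPLT2, and 67.5 ± 2.59%, 64.1 ± 2.21% and 65.2 ± 1.04% in plt2. Its range at 5 nM was 52.8% to 58.1% in gPLT2C212S, against 62.1% to 67.6% at mock, whereas in gPLT2 it was 49.5% to 60.5%, against 58.6% to 66.3% at mock, with some overlap.

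Within H2A, the share of H2A.X averaged 17.2%, 22.5% and 25.4% over the doses in gPLT2C212S, 16.1%, 17.5% and 20.03% in gPLT2, and 15.8%, 15.9% and 17.2% in plt2. The share of H2A.W averaged 32.8%, 28.4% and 25.4% in gPLT2C212S, 33.4%, 32.4% and 26.9% in gPLT2, and 32.5%, 33.4% and 33.2% in plt2. H2A.Z took 26.4%, 30.3% and 31.04% in gPLT2C212S, 27.0%, 30.8% and 33.2% in gPLT2, and 25.6%, 23.9% and 24.4% in plt2. Between 5 nM and mock the library ranges of the H2A.X share were apart in both transgenic lines, at 21.6% to 27.8% against 16.0% to 18.6% in gPLT2C212S and 18.6% to 21.1% against 15.5% to 17.0% in gPLT2. Those of H2A.W were apart as well, at 22.4% to 28.0% against 30.4% to 36.1% in gPLT2C212S and 22.6% to 30.4% against 33.04% to 34.04% in gPLT2. Shares sum to the whole, so a larger share of one type goes with a smaller share of another. No test was made on sums or shares of members.

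**Figure D3:**
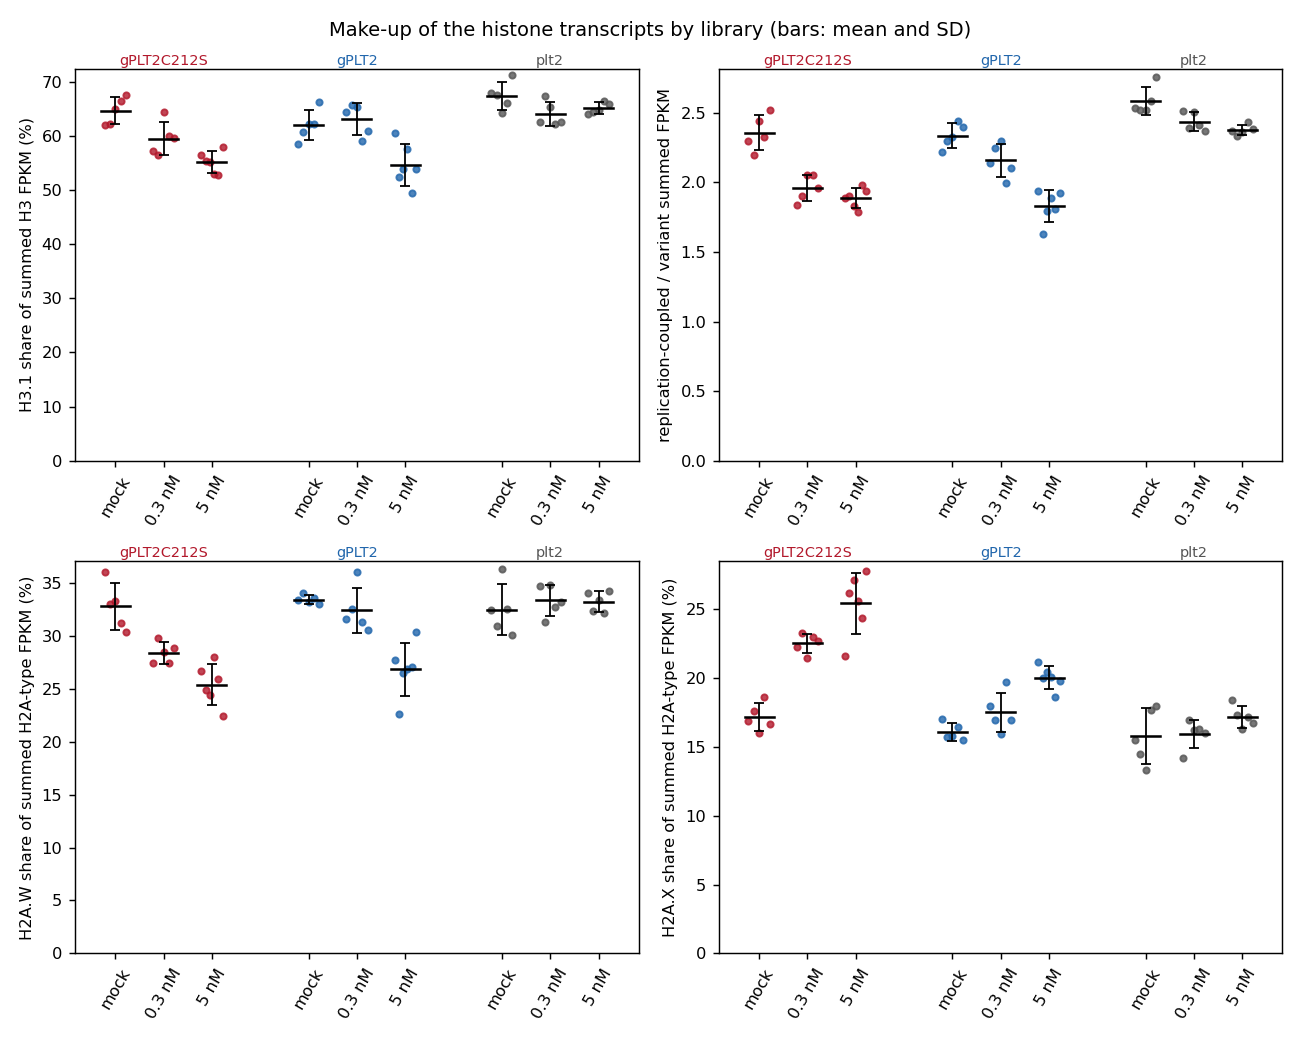
Share of H3.1 in the summed H3 level in percent, ratio of the replication-coupled to the variant summed FPKM, and shares of H2A.W and of H2A.X in the summed level of all H2A types in percent, by genotype and RGF1 dose in nM, with one point per library and bars at the mean with SD. The ratio at 5 nM lies between 1.79 and 1.98 in gPLT2C212S and between 1.63 and 1.94 in gPLT2, below all mock libraries of both lines, and the mean H2A.X share at 5 nM is 25.4% in gPLT2C212S and 20.03% in gPLT2.

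Without RGF1 the genotypes differed in fewer histone genes. The replication-coupled sum was nonetheless apart at mock, at 3585 to 4025 FPKM in plt2. It was 2709 to 3262 FPKM in gPLT2C212S and 2781 to 3380 FPKM in gPLT2. At mock, 11 of 38 tested genes were lower in gPLT2C212S than in plt2, 3 of 38 were lower in gPLT2 than in plt2, and 0 of 38 differed between gPLT2C212S and gPLT2, where 4 had an unadjusted p under 0.05 and DESeq2 called 1. Over all genes tested, 11.8%, 1.08% and 6.55% were lower in these comparisons. The 11 genes were HTA2, HTA6, HTA10, HTA13, HTB4, HTB9, HTB11, HIS4, AT3G53650, AT3G53730 and AT5G10400, with log2 differences between −0.81 for AT3G53650 and −0.35 for AT5G10400. HTA13 had 75.7, 75.6, 67.8, 44.2 and 66.4 FPKM in gPLT2C212S, against 86.9, 96.7, 128, 87.7 and 79.9 FPKM in plt2. It was lower in every gPLT2C212S library, with a log2 difference of −0.54 ± 0.16 (edgeR adjusted p = 0.0267). The 3 genes lower in gPLT2 were AT5G10400 at −0.48, AT5G10390 at −0.79 and HTA10 at −0.38. These mock counts were fragile. Leaving out 1 library gave 3 to 12 genes for gPLT2C212S against plt2, with 6 without plt2 replicate 2, and 7, 7, 3 and 5 without gPLT2C212S replicates 2, 3, 4 and 5. For gPLT2 against plt2 it gave 0 to 4, with 0 without plt2 replicate 1 or 2 or without gPLT2 replicate 1, 2, 4 or 5, and 1 without gPLT2 replicate 3. For gPLT2C212S against gPLT2 it gave 0 to 3, with 3 without gPLT2C212S replicate 1 and 2 without gPLT2 replicate 3.

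With RGF1 most tested histone genes were lower in the transgenic lines than in plt2. At 0.3 nM, 31 of 38 tested genes were lower in gPLT2C212S than in plt2 and 31 of 38 in gPLT2 than in plt2, and at 5 nM 33 of 37 and 32 of 37 were lower. The shares over all genes tested were 24.2% and 17.0% at 0.3 nM and 23.2% and 20.7% at 5 nM. Median log2 differences of the replication-coupled genes were −0.997 in gPLT2C212S and −0.79 in gPLT2 at 0.3 nM, and −1.16 and −0.86 at 5 nM. For the variant genes they were −0.68 and −0.62 at 0.3 nM, and −0.54 and −0.36 at 5 nM. All of these comparisons share the plt2 libraries of their dose, and they include any difference between genotypes already present at mock. HTB2 had 58.9, 58.9, 67.2, 56.8 and 55.7 FPKM at 0.3 nM in gPLT2C212S and 72.3, 67.7, 67.4, 53.4 and 61.7 FPKM in gPLT2, against 164, 124, 120, 130 and 120 FPKM in plt2. Every plt2 library was above every library of either transgenic line, and the log2 difference from plt2 was −1.14 ± 0.11 for gPLT2C212S (edgeR adjusted p = 5.11e-08) and −1.01 ± 0.12 for gPLT2 (adjusted p = 1.07e-06).

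Fewer genes differed between the 2 transgenic lines. At 0.3 nM edgeR called 0 of 37 tested genes between gPLT2C212S and gPLT2, with 11 at an unadjusted p under 0.05 and 1 called by DESeq2, and 3.99% of all genes were lower. At 5 nM, 5 of 36 were lower in gPLT2C212S, against 2.06% of all genes tested. These were AT4G40030 at −0.57 (edgeR adjusted p = 0.00369), HTA9 at −0.40 (adjusted p = 0.00673), AT5G65360 at −0.46 (adjusted p = 0.00873), HTA6 at −0.48 (adjusted p = 0.0186) and HTA13 at −0.50 (adjusted p = 0.0403). For HTA9 the 5 nM libraries spanned 128 to 150 FPKM in gPLT2C212S and 171 to 210 FPKM in gPLT2, which do not overlap. With total-count scaling 21 histone genes were called in this comparison.

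Whether the response to RGF1 differed between genotypes was tested with interaction terms. For the 5 nM response, 20 of 38 tested genes had a lower response in gPLT2C212S than in plt2, 13 in gPLT2 than in plt2 and 3 in gPLT2C212S than in gPLT2, against 6.00%, 6.34% and 1.57% of all genes tested. For 0.3 nM the counts were 18, 15 and 0, against 6.19%, 3.85% and 0.525%. In the last of these, 3 genes had an unadjusted p under 0.05 and DESeq2 called 1. By class, the 20 genes were 17 replication-coupled and 3 variant ones, and the 13 were 10 and 3. Leaving out 1 library gave 7 to 17 in place of the 13, with 7 when plt2 5 nM replicate 1 was left out. For the 3 it gave 1 without gPLT2 mock replicate 2 and 6 without gPLT2C212S mock replicate 1. At 0.3 nM the length and GC offset gave 9 in place of 15, and the mitochondrial share as covariate 10 in place of 18. Scaling by total counts gave 15, 1 and 0 calls at 5 nM in place of 20, 13 and 3, and 1 call in each plt2 comparison at 0.3 nM, of which the one for gPLT2C212S was a higher response. That scaling put the median over all genes at 0.52 for the 0.3 nM response of gPLT2C212S minus plt2 and at 0.31 for gPLT2 minus plt2, and turned the median of the linker genes in the first of these to 0.12.

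For HTA6, the difference in the 5 nM response was −1.10 ± 0.17 between gPLT2C212S and plt2 (edgeR adjusted p = 3.05e-05), its plt2 response being −0.06. For the H4 gene AT3G45930, it was −1.07 ± 0.17 between gPLT2C212S and plt2 (adjusted p = 5.2e-05) and −1.04 ± 0.18 between gPLT2 and plt2 (adjusted p = 0.000342). AT5G59970 differed by −1.15 ± 0.22 between gPLT2 and plt2 at 5 nM (adjusted p = 0.0013) and by −1.30 ± 0.22 at 0.3 nM (adjusted p = 0.00126). Its fall in plt2 was smaller at 5 nM, while at 0.3 nM its plt2 levels averaged above mock and no change was called. HTA13 had 29.1, 41.1, 38.5, 46.5 and 37.6 FPKM at 0.3 nM in gPLT2C212S and 44.2, 29.0, 27.7, 42.8 and 47.2 FPKM in gPLT2, against 96.7, 81.6, 95.8, 123 and 120 FPKM in plt2, and its gPLT2 mock libraries had 86.2, 86.2, 52.7, 95.8 and 78.8 FPKM. HTB2 at mock had 118, 99.9, 136, 94.4 and 102 FPKM in gPLT2C212S and 117, 101, 86.6, 102 and 98.9 FPKM in gPLT2, against 119, 127, 144, 104 and 124 FPKM in plt2. For both genes the plt2 libraries at 0.3 nM lay above all libraries of the transgenic lines at that dose, while HTB2 overlapped between genotypes at mock. At 0.3 nM, HTA13 differed by −1.17 ± 0.24 between gPLT2 and plt2 (adjusted p = 0.00498), HTB2 by −0.98 ± 0.17 between gPLT2C212S and plt2 (adjusted p = 0.000344), and HTA10 by −0.86 ± 0.16 between gPLT2C212S and plt2 (adjusted p = 0.00113). With total-count scaling the gPLT2 call of AT3G45930 (−0.81, adjusted p = 0.0836) and the 0.3 nM calls of HTA13 (−0.82, adjusted p = 0.0853), HTB2 (−0.46, adjusted p = 0.202) and HTA10 (−0.34, adjusted p = 0.304) were lost.

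Between the 2 transgenic lines, the 5 nM response differed for 3 H3 genes. AT5G65360 (H3.1) differed by −0.69 ± 0.15 (edgeR adjusted p = 0.00709), AT4G40030 (H3.3) by −0.70 ± 0.18 (adjusted p = 0.0177) and AT5G10400 (H3.1) by −0.52 ± 0.15 (adjusted p = 0.0327), each lower in gPLT2C212S. AT5G10400 had 35.7 to 50.5 FPKM with a median of 38.9 at 5 nM, against 87.4, 89.2, 85.1, 76.9 and 75.5 FPKM at mock, in gPLT2C212S, and 45.3 to 58.5 FPKM with a median of 53.5 at 5 nM, against 73.3, 73.2, 82.5, 67.6 and 75.9 FPKM at mock, in gPLT2. It fell without overlap in both lines. Leaving out 1 library gave between 1 and 6 such genes, with 1 without gPLT2 mock replicate 2 and 6 without gPLT2C212S mock replicate 1, and total-count scaling gave 0.

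**Figure D4:**
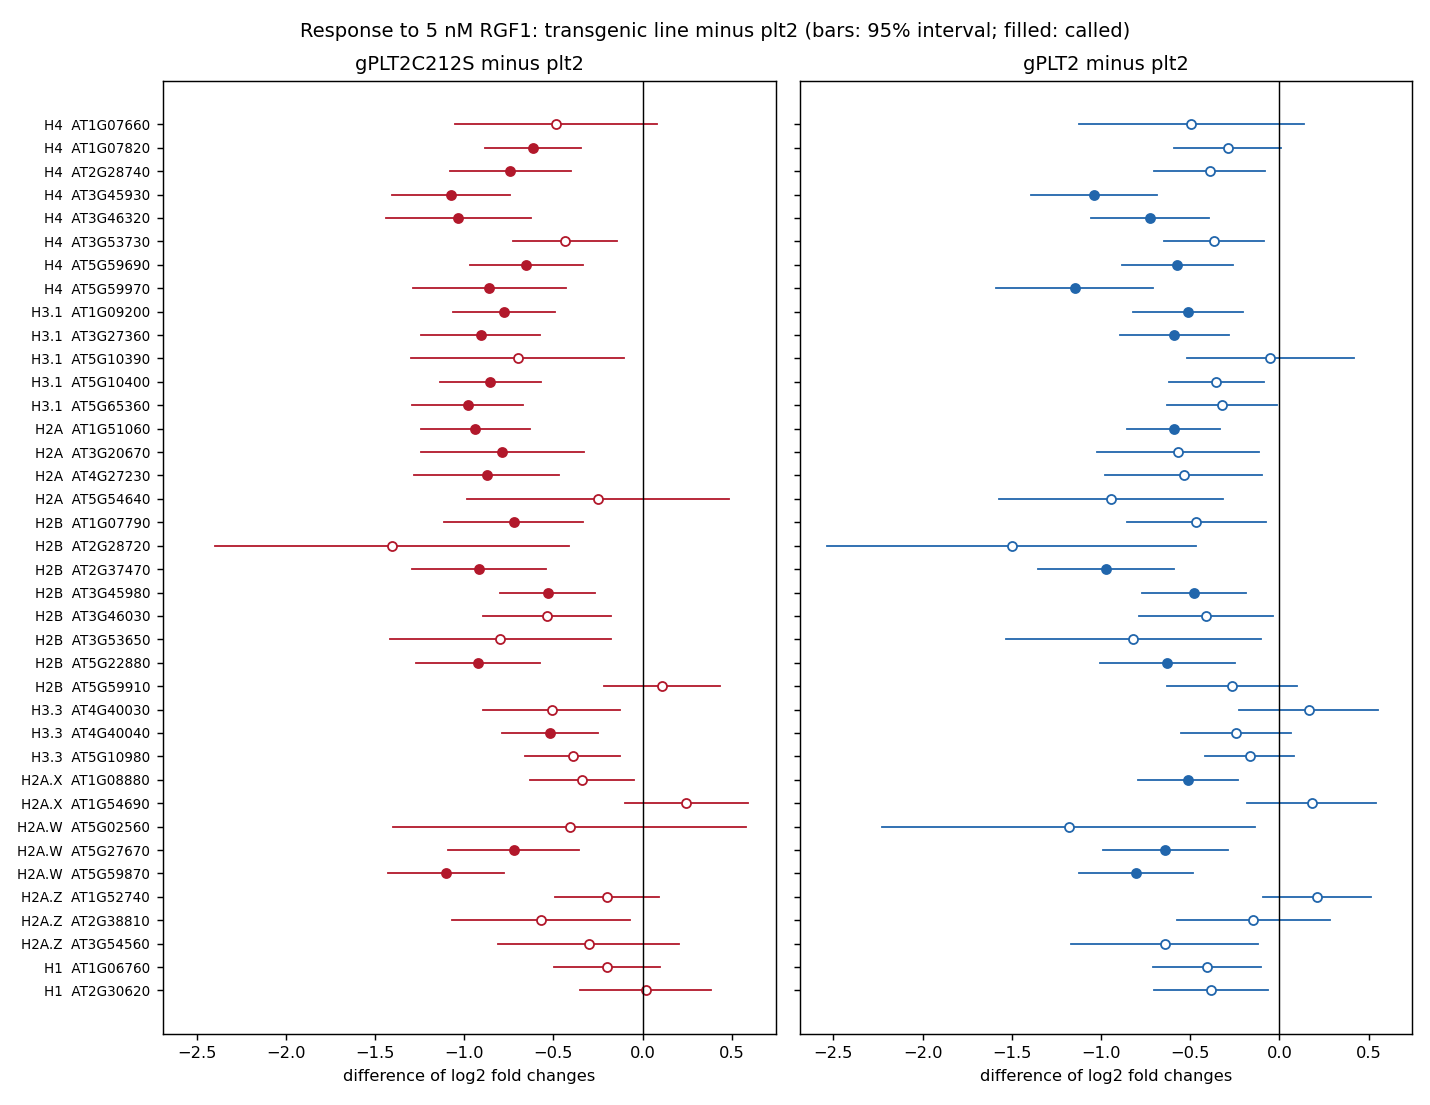
Difference in the log2 response to 5 nM RGF1, gPLT2C212S minus plt2 on the left and gPLT2 minus plt2 on the right, for each tested histone gene by locus and type, with the 95% interval as a bar and the marker filled where edgeR's adjusted p was under 0.05. Most genes lie below 0, with the H4 gene AT3G45930 at −1.07 for gPLT2C212S and −1.04 for gPLT2.

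Responses can be set beside the promoter elements shown above. At 5 nM in gPLT2C212S, 10 of 10 genes with the octamer fell, with a median of −1.03, and 23 of 28 tested genes without it fell, with a median of −0.91. In gPLT2 these were 8 of 10 with a median of −0.61 and 22 of 27 with a median of −0.74. Genes with the hexamer fell in 10 of 10 cases in both transgenic lines, with medians of −1.09 in gPLT2C212S and −0.82 in gPLT2, and genes without it fell in 23 of 28 and 20 of 27 cases, with medians of −0.82 and −0.66. In plt2 the 5 genes that fell carried neither element, where 28 tested genes lacked the octamer and 28 lacked the hexamer. All of the 5 except HTA11 were H4 genes, a type with the octamer in 2 of 8 genes and the hexamer in 0 of 8. These are descriptions over few genes.

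Genes that act with histones were read against the share of all tested genes that rose at 5 nM, which was 18.7% in gPLT2C212S, 23.2% in gPLT2 and 2.82% in plt2. The shares that fell were 21.5%, 24.3% and 6.62%, as above. Of 14 genes for histone chaperones and assembly factors, which carry histones to DNA, 3 rose and 0 fell at 5 nM in gPLT2C212S, 7 rose and 1 fell in gPLT2, and 0 rose and 1 fell in plt2. NAP1;1, a chaperone of H2A and H2B, rose by 0.65 on the log2 scale in gPLT2C212S and 0.74 in gPLT2, and NAP1;2 by 0.60 and 0.65. SSRP1, a subunit of the FACT complex, rose by 0.61 in gPLT2. Of 5 genes for variant deposition, 2 rose in gPLT2C212S, 4 in gPLT2 and 0 in plt2. DDM1, a remodeller needed to deposit H2A.W, rose by 0.78 in gPLT2C212S and 0.94 in gPLT2, and INO80 by 0.55 and 0.60. The H3.1 reader list of 3 genes had 0 calls in each line. Of the 9 further histone-like genes outside the 40, 3 were tested in each transgenic line and all 3 fell in both, and 0 of 4 were called in plt2. These were HTR12, the centromeric H3, at −0.90 in gPLT2C212S and −0.79 in gPLT2, HTR11 at −1.963 and −0.93, and HTB7 at −1.22 and −0.94.

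Cell cycle genes were counted against the same shares. Of 11 S phase genes for DNA replication, 0 rose and 1 fell at 5 nM in gPLT2C212S, 1 rose and 1 fell in gPLT2, and 2 rose and 0 fell in plt2, with median log2 changes of −0.07, 0.18 and 0.19. PCNA1, the sliding clamp of DNA polymerase, fell by 0.45 on the log2 scale in gPLT2C212S and by 0.35 in gPLT2. RNR2A, a ribonucleotide reductase subunit, rose by 0.69 in gPLT2 and 0.87 in plt2. Of 7 mitotic genes, 6 rose and 0 fell in gPLT2C212S, 5 rose and 0 fell in gPLT2, and 0 were called in plt2, with medians of 0.77, 0.70 and 0.12. KNOLLE, the syntaxin of the cell plate, rose by 0.97 in gPLT2C212S and 1.05 in gPLT2, and the kinase gene CDKB2;1 by 0.77 and 0.84.

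**Figure D5:**
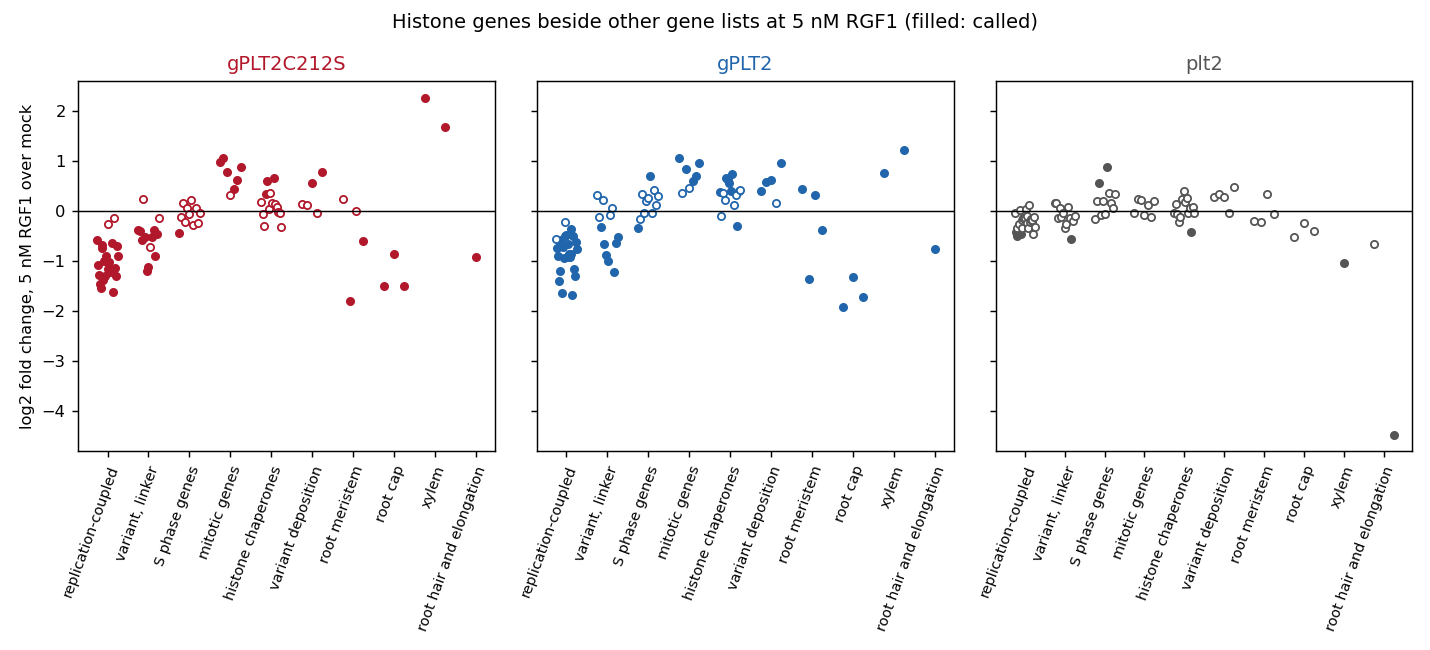
Log2 change at 5 nM RGF1 against mock in each line for the tested genes of the histone classes and of the other lists, with one point per gene, filled where edgeR's adjusted p was under 0.05. In gPLT2C212S the replication-coupled genes have a median of −1.09, the S phase genes one of −0.07 and the mitotic genes one of 0.77.

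Some markers of other cells in the root tip changed at 5 nM against mock. All 3 root cap genes, BRN1, BRN2 and SMB, which direct root cap maturation, fell at 5 nM in gPLT2C212S, by 1.51, 1.51 and 0.87 on the log2 scale, and in gPLT2, by 1.93, 1.73 and 1.32, and 0 of 3 were called in plt2. Their summed level ranged from 39.1 to 82.4 FPKM at 5 nM, against 137 to 163 FPKM at mock, in gPLT2C212S, from 31.3 to 78.6 FPKM, against 119 to 231 FPKM, in gPLT2, and from 91.1 to 183 FPKM, against 115 to 321 FPKM, in plt2. Of 5 root meristem genes, 4 were tested in each line at 5 nM, of which 0 rose and 2 fell in gPLT2C212S, 2 rose and 2 fell in gPLT2, and 0 were called in plt2. PLT1 fell by 1.80 in gPLT2C212S and by 1.36 in gPLT2, and SHR by 0.61 and 0.38, while in gPLT2 SCR rose by 0.31 and PLT2, which the transgene carries, by 0.44. The summed level of the 5 genes had a median of 78.7 FPKM at 5 nM, against 81.0 FPKM at mock, in gPLT2C212S, 71.7 FPKM, against 66.5 FPKM, in gPLT2, and 63.9 FPKM, against 65.2 FPKM, in plt2. The xylem genes XCP1 and IRX3 rose in both transgenic lines and XCP1 fell by 1.05 in plt2, and the summed level of the 4 xylem genes was at most 20.5 FPKM in any library. Among the root hair genes, RHD6 fell by 0.92 in gPLT2C212S and by 0.77 in gPLT2, and COBL9 fell by 4.48 in plt2. Of the 4 genes of this list, 3 had FPKM values, and their summed level was at most 31.9 FPKM in any library. The 4 endodermal barrier genes were tested in no line at 5 nM, with sums of at most 7.22 FPKM. The 3 shoot genes summed to 10.7 to 18.2 FPKM at 5 nM, against 4.46 to 7.80 FPKM at mock, in gPLT2C212S, and to 8.63 to 13.0 FPKM, against 1.2 to 4.82 FPKM, in gPLT2. The part of these shifts in the histone changes was not tested.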

How the data were processed

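The authors' deposited count table gives whole-number read counts per locus, and their deposited FPKM table gives levels per transcript length. Per the submitters' processing notes, HISAT2 2.1.0, featureCounts, Subread 2.0.3, DESeq 1.34.0 and the TAIR10 build were used; strand and multi-mapping settings are not given in the sources used here. Counts were tested per comparison with edgeR 4.0.16 (R 4.3.3) after TMM scaling and filterByExpr with a minimum count of 10, with p-values adjusted by Benjamini and Hochberg's method across every gene in the fit, in 21 fits: 6 dose, 9 genotype and 6 interaction comparisons. The tests were tried on simulated data. Alternatives were DESeq2 1.42.0, other scalings, filters and covariates, a length and GC offset added after seeing the data because histone transcripts are short, and leaving out each library. Sequences and positions are from RefSeq TAIR10.1, which matched 36632 loci by name. The histone genes and lists were chosen with earlier results of these data known. Named genes are the highest member of each type, those of smallest adjusted p in each comparison and those against most of their type. No column was left unmatched.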

Additional observations from a re-analysis of the deposited data

Results flagged for a closer look

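Of 189 sets of values checked for a library far from its group, 14 had one, where chance gives about 1 in 20. In plt2 at 0.3 nM, AT1G09200 had 333 FPKM in replicate 3 (others 289 to 301), HIS4 63.4 FPKM in replicate 2 (others 93.6 to 102) and HTB2 164 FPKM in replicate 1 (others 120 to 130). In plt2 at 5 nM, replicate 1 had 305 FPKM of HTA6 (others 223 to 246), 170.3 FPKM of HTA7 (others 131 to 140) and 109 FPKM of HTA13 (others 59.4 to 72.1), so 3 of the 14 fell in that library, and replicate 4 had 80.2 FPKM of AT4G40030 (others 62.3 to 65.1). In plt2 at mock, HTA6 had 324 FPKM in replicate 3 (others 239 to 255), and the ratio of replication-coupled to variant levels was 2.76 in replicate 5 (others 2.52 to 2.59). In gPLT2C212S, AT1G06760 had 183 FPKM in mock replicate 3 (others 158 to 165) and HTB2 67.2 FPKM in 0.3 nM replicate 3 (others 55.7 to 58.9). In gPLT2, mock replicate 3 had 175 FPKM of AT1G06760 (others 205 to 213) and 148 FPKM of HTA7 (others 187 to 196), and 5 nM replicate 5 had 55.8 FPKM of HTA13 (others 37.1 to 40.7).

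The response to RGF1 differed between genotypes by the interaction test for 18 histone genes (gPLT2C212S and plt2) and 15 (gPLT2 and plt2) at 0.3 nM. At 5 nM it differed for 20 genes (gPLT2C212S and plt2), 13 (gPLT2 and plt2) and 3 (gPLT2C212S and gPLT2). All of these were lower in the line named first.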

How the results depend on the processing

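Of 168 counts of called histone genes recomputed under the alternatives that keep all libraries, 132 stayed within 1.5 times the count reported and 36 did not; no cause was tested. Total-count scaling uses library totals that include the mitochondrial counts, which were 46.3% to 72.4% of the counts in a library. It shifted the median over all genes by −0.35 to 0.53 on the log2 scale, by over 0.1 in 16 of the 21 comparisons, and moved the split of higher and lower calls by over 10 percentage points in 17. It gave 3 genes at 5 nM in plt2 in place of 5, 10 at 0.3 nM in gPLT2 in place of 25, 10 at 0.3 nM in gPLT2C212S in place of 29, 1 for gPLT2 against plt2 at mock in place of 3, and 21 for gPLT2C212S against gPLT2 at 5 nM in place of 5. For response differences it gave 1 at 0.3 nM in each comparison with plt2 in place of 15 (gPLT2) and 18 (gPLT2C212S), 1 for gPLT2 minus plt2 at 5 nM in place of 13, and 0 for gPLT2C212S minus gPLT2 in place of 3.

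For gPLT2 against plt2 at mock, DESeq2 gave 6, no filter 6, 1 fit of all groups 7 and the length and GC offset 5, in place of 3. For gPLT2C212S against plt2 at mock, no filter gave 7 and the mitochondrial share as covariate 6, in place of 11. Between the transgenic lines at mock, DESeq2, no filter, 1 fit of all groups and the mitochondrial covariate each gave 1 in place of 0. At 0.3 nM, DESeq2, no filter and the mitochondrial covariate each gave 1, 1 fit of all groups 3 and the length and GC offset 2, in place of 0. At 5 nM, DESeq2 gave 9 and no filter 11 in place of 5. For the 0.3 nM response, the length and GC offset gave 9 in place of 15 (gPLT2 minus plt2), the mitochondrial covariate gave 10 in place of 18 (gPLT2C212S minus plt2), and DESeq2, 1 fit of all groups, the mitochondrial covariate and the length and GC offset each gave 1 in place of 0 (gPLT2C212S minus gPLT2). With that offset, 0 genes were called at 5 nM in plt2.

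No pairing of libraries by replicate number was found: in 0 of 15 comparisons did every same-numbered pair correlate above 0.1 (r from −0.34 to 0.23). This rule needs every pair at once and would miss partial pairing. Of 5 libraries, 3 correlated best with their own number in gPLT2 against plt2 at 5 nM and in gPLT2C212S at 0.3 nM against mock. With the replicate number as a block, 3 genes were called at 5 nM in plt2 in place of 5, 0 for gPLT2 against plt2 at mock in place of 3, and 1 for gPLT2C212S against gPLT2 at 0.3 nM in place of 0.

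Leaving out 1 library gave 2 to 9 genes at 5 nM in plt2, 20 to 25 at 0.3 nM in gPLT2, 25 to 29 at 0.3 nM in gPLT2C212S, 0 to 4 for gPLT2 against plt2 at mock, 3 to 12 for gPLT2C212S against plt2 at mock, and 0 to 3, 0 to 2 and 4 to 7 for gPLT2C212S against gPLT2 at mock, 0.3 nM and 5 nM. For response differences it gave 11 to 19 (gPLT2 minus plt2), 15 to 19 (gPLT2C212S minus plt2) and 0 to 1 (gPLT2C212S minus gPLT2) at 0.3 nM, and 7 to 17, 19 to 24 and 1 to 6 at 5 nM, with 7 without plt2 5 nM replicate 1. With counts not divided by length, H3.1 made up 56.4%, 51.4% and 46.1% of H3 at mock, 0.3 nM and 5 nM in gPLT2C212S, 53.8%, 54.9% and 45.4% in gPLT2, and 59.8%, 55.8% and 56.5% in plt2.

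Of 35 results for named genes, 280 values under these alternatives included 12 that lost their call and 0 that changed sign, and 477 values without 1 library included 8 that lost it, 7 of them HTA11 at 5 nM in plt2 and the other the response difference of AT4G40030 without gPLT2 mock replicate 2 (−0.62, edgeR adjusted p = 0.0517). Besides those given above, the response differences of AT5G65360 (−0.96, adjusted p = 0.0765) and AT4G40030 (−0.98, adjusted p = 0.0856) lost their call with total-count scaling, and HTA11 at 5 nM in plt2 with the replicate block (−0.57, adjusted p = 0.0543). Depth limits HTA4, HIS1-3, HTA12 and AT2G28720, and near-identical H4 genes cannot be told apart where their reads match both.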
